A study of Mus musculus with 207 samples.

Results

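The young beta cells numbered 40 to 54 in the sample titles are 15 cells in which few genes were seen and insulin took up much of the RNA signal. They were compared with the young cells numbered 1 to 39, and together they make up 54 of the 138 young cells and of the 207 cells in all. The cells were taken from pancreatic islets of male mice aged 3 months, which the labels call young; 69 further cells came from mice aged 26 months. The sources used here do not name the mouse strain, the number of animals, or the day or chip on which a cell was captured. Each cell was captured on a Fluidigm C1 microfluidic chip, cDNA was made from it with the SMARTer kit, and a library was built with Nextera XT. Expression was deposited as TPM (transcript counts relative to a fixed total), which scales every cell to the same total after division by transcript length and keeps no read depth. Since no animal is named, both sets of cells are parts of 1 sample, and the differences below are descriptions without a test.

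The run of cells 40 to 54 was picked from the cell numbers because of its low gene counts and high insulin share, so these 2 measures, and every other difference between the same 2 sets, describe the choice and do not support it. A gene is called seen in a cell at TPM 1 or above. Cells 40 to 54 had 2361, 2217, 2967, 2252, 1604, 2221, 2429, 2759, 2320, 3608, 2313, 2379, 2746, 2245 and 1992 genes seen, a median of 2320. In cells 1 to 39 the number lay between 2695 and 5214 with a median of 3944. In 11 of the 15 cells it was below that of every cell of 1 to 39, and cell 49, with 3608 genes, was the one most like them. The border of the run was sharp on both sides: cells 38 and 39 had 4084 and 4066 genes against 2361 and 2217 in cells 40 and 41, and cells 53 and 54 had 2245 and 1992 against 4511 and 4135 in cells 55 and 56.

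The run was picked partly by its insulin share, so a check of the beta-cell label by the 2 markers fixed for it was decided in advance. These markers are the insulin genes Ins1 and Ins2. Their summed share lay between 40.4 and 77.9% of TPM in cells 40 to 54 (median 67.9%) and between 30.4 and 78.7% in cells 1 to 39 (median 51.4%). The ranges overlapped almost wholly, and 13 of the 15 cells were above the median of cells 1 to 39. Insulin did not set cells off at the border in the way the gene count did, with 30.4 and 53.6% in cells 38 and 39, 59.5 and 73.3% in cells 40 and 41, 54.7 and 77.9% in cells 53 and 54 and 67.0 and 59.7% in cells 55 and 56. Within each set, cells with fewer genes had more insulin, with a Spearman rho of -0.54 over the 15 cells and -0.56 over the 39 cells; both measures come from the same fixed total of the same library.

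**Figure D1:**
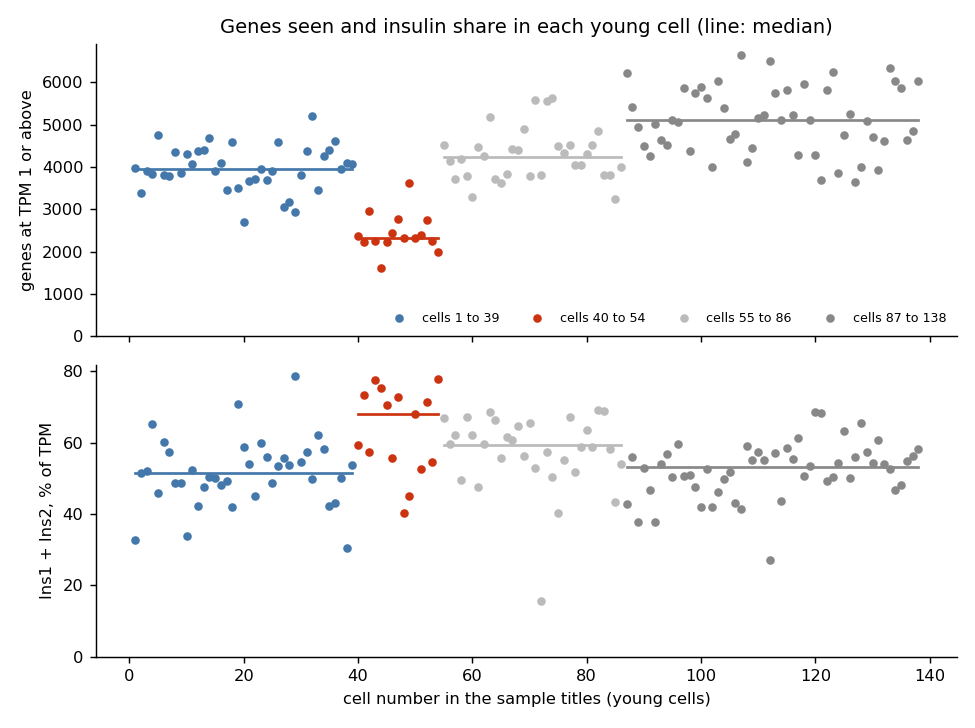
Number of genes at TPM 1 or above (top) and summed share of Ins1 and Ins2 in percent of TPM (bottom) against the cell number for all 138 young cells, with 1 point per cell and a line at the median of each run. The gene count of cells 40 to 54 has a median of 2320 and steps up to 4226 in cells 55 to 86, while their insulin share overlaps that of the other cells.

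A beta cell devotes most of its protein synthesis to proinsulin, which enters the endoplasmic reticulum (ER), is folded there, and is cut to insulin by convertases in granules that a proton pump acidifies. Glucose enters through a transporter, is burned in glycolysis and mitochondria, and the ATP formed closes potassium channels, so that calcium enters and granules fuse with the membrane. A small set of transcription factors keeps these genes on. In single-cell sequencing only part of a cell's RNA molecules is copied, and a gene with few molecules can be missed in a cell that expresses it.

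What stayed in cells 40 to 54 was a short list of very abundant RNAs. The 100 highest genes of each cell took a median of 92.8% of TPM against 78.6% in cells 1 to 39, and in 11 of the 15 cells the share was above that of all 39 cells. With the insulin genes left out, the 100 highest of the other genes took 77.4% against 55.2%, so that the concentration was not a matter of insulin alone. Of the genes above 0, 46.1% were under TPM 1 in the median cell of 40 to 54 and 32.7% in that of cells 1 to 39. The number of genes at TPM 100 or above was 312 against 747, a larger relative gap than the 4306 against 5902 genes above 0.

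How often a gene was still seen followed its level in cells 1 to 39. Lost genes are those whose share of cells was lower by at least 50 percentage points. Of the 10990 genes that averaged TPM 1 or more in either set, 298 (2.71%) were lost by this rule, and 8846 were seen in a smaller share of cells 40 to 54 than of cells 1 to 39. Genes with a mean between 100 and 1000 TPM in cells 1 to 39 were seen in a median of 92.3% of those cells and 66.7% of cells 40 to 54, and 11.6% of them were lost. For means between 10 and 100 TPM the medians were 41.0 and 20.0%, with 4.37% lost, and for means between 1 and 10 TPM they were 15.4 and 6.67%, with 0.884% lost. A gene seen in few cells of the first set cannot be lower by 50 points, which limits the last 2 shares. At the level of means, 3301 (63.5%) of 5197 genes with TPM 10 or more in either set were lower by 2-fold or more and 632 (12.2%) higher. None of the 33 genes at 1000 TPM or above was lost, and both medians were 100%.

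Long transcripts had lower ratios than short ones among genes of high level. Below that the shortest class was also the least low, but the longer classes showed no steady fall with length. Among protein-coding genes with a mean between 100 and 1000 TPM, the median log2 ratio of cells 40 to 54 over cells 1 to 39, computed on mean TPM plus 1, was -0.49 for transcripts under 1000 nt and -2.24 for those of 4000 nt or more. The share lost was 22.6% of the 53 longest and between 10.5 and 12.1% in the 3 shorter classes. For means between 10 and 100 TPM the same 4 length classes had median ratios of -1.78, -2.56, -2.62 and -2.42, from short to long, and the shares lost were 3.76, 2.28, 3.60 and 6.30%. The high-level classes did not have quite the same level: the median of mean TPM was 212 in the shortest and 163 in the longest class. Kept genes, defined as seen in at least 90% of both sets, had a median transcript length of 1601.5 nt, against 3166 nt for lost genes and 3357 nt for all coding genes tested. Much of this gap went with level: among coding genes with a mean between 100 and 1000 TPM the medians were 1648, 1962 and 1883.5 nt.

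Cells 40 to 54 also shared fewer of their genes with each other. A pair of these cells had in common a median of 49.4% of the smaller list (105 pairs), against 56.0% for pairs of cells 1 to 39 (741 pairs). Over the 15 cells 9825 genes were seen in at least 1 cell, and 3629 of these (36.9%) in 1 cell only. A larger set of cells leaves fewer genes seen in 1 cell, so the 17.0% of cells 1 to 39 is not on a like footing. A core of 232 genes was seen in all 15 cells and 126 genes in all 54.

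**Figure D2:**
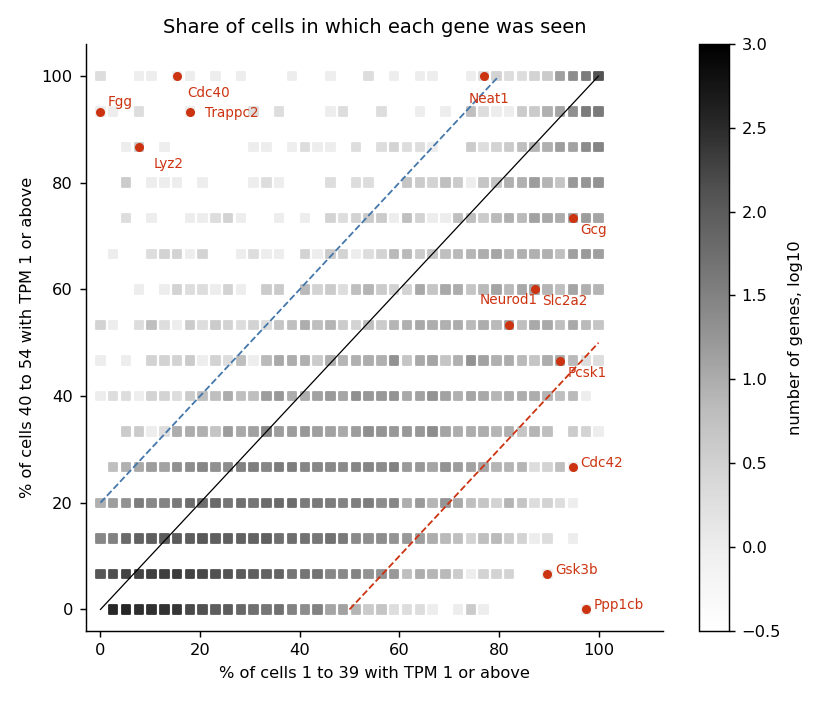
Percent of cells 40 to 54 against percent of cells 1 to 39 in which a gene was seen at TPM 1 or above, for the 10990 genes tested, with darker squares holding more genes (log10 scale). Below the red dashed line are lost genes (at least 50 points lower), above the blue dashed line gained genes (at least 20 points higher); Ppp1cb lies at 97.4 and 0% and Fgg at 0 and 93.3%.

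Among genes seen in a smaller share of cells 40 to 54, the largest difference was that of Ppp1cb (NCBI Gene 19046, chr5:32458848-32493713 in GRCm38.p6), a catalytic subunit of protein phosphatase 1. It lay between 0.383 and 504 TPM in cells 1 to 39 (median 67.4) and between 0 and 0.992 TPM in cells 40 to 54 (median 0). It was seen in 38 of 39 cells and in 0 of the 15 (an upper limit of 20.0% by 3 counts of 15), and 12 of the 15 cells were below all of cells 1 to 39. In the later young cells it was seen in 96.9% of cells 55 to 86 and 100.0% of cells 87 to 138. Its log2 ratio was -6.60, a value that leans on the added 1 since the mean of cells 40 to 54 was 0.226 TPM.

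Of the next lost genes by the same ranking, several with known roles are given here. Gsk3b, a kinase that restrains glycogen synthesis and Wnt signalling, was seen in 35 of 39 and 1 of 15 cells. Cdh1, the adhesion protein E-cadherin that joins epithelial cells, was seen in 32 of 39 and 1 of 15 cells, and Hmgn2, a nucleosome-binding protein, also in 32 of 39 and 1 of 15 cells. Prpf8, the central protein of the spliceosome, was seen in 29 of 39 and 0 of 15 cells, and Ubqln1, a shuttle to the proteasome, in 28 of 39 and 0 of 15 cells. Cdc42, the small GTPase that organises actin for granule release, had one of the lowest ratios of means: it lay between 0.208 and 714 TPM in cells 1 to 39 (median 60.1) and between 0 and 3.46 TPM in cells 40 to 54 (median 0.230), and all 15 cells were below the median of the 39. The single highest value of cells 40 to 54 was thus far under the usual level of the first set for Cdc42, whereas Gsk3b was at 21.0 TPM in cell 50, which held 92.8% of the total of the 15 cells, and under 1 TPM in the others.

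The 298 lost genes were not rare in the remaining young cells. They were seen in a median of 76.9% of cells 1 to 39 and 13.3% of cells 40 to 54, but again in 68.75% of cells 55 to 86 and 82.7% of cells 87 to 138. Of them, 235 were protein-coding and 61 pseudogenes, and 31 were seen in 0 of the 15 cells. The 311 kept genes (2.83%) were of another make: 188 were protein-coding, 48 of these encoding cytosolic ribosomal proteins, 113 were pseudogenes and 16 lay on the mitochondrial genome. Reads of ribosomal protein genes can be shared with their many pseudogenes, so the split between those classes is uncertain.

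Many ribosomal protein transcripts begin with a run of pyrimidines at the start of transcription, a feature that ties their translation to growth signals. The starts below show this for the 4 kept ribosomal protein genes with the highest ratios among those that carry the letters, beside the 4 lost genes with the largest difference in share that have an entry, read from RefSeq promoters (GRCm38.p6). Each run holds 30 bases before and 10 from the start on, on the gene's strand, with the letters CTTTC or CTCTT in capitals where they lie within 10 bases of the start; both letter runs overlap within CTCTTTC.
Rps27 (chr3:90213639-90213678, minus strand): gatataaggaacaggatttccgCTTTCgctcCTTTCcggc
Rpl35 (chr2:39005122-39005161, minus strand): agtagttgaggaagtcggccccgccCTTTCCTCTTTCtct
Rpl38 (chr11:114668550-114668589, plus strand): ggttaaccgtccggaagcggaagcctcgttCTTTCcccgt
Rps9 (chr7:3704011-3704050, plus strand): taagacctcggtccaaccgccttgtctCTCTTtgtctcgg
Ppp1cb (chr5:32458940-32458979, plus strand): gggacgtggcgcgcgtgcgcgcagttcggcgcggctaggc
Gsk3b (chr16:38088971-38089010, plus strand): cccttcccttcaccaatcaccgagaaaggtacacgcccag
Tmsb15b2 (chrX:136957970-136958009, minus strand): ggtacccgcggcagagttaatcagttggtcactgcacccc
Swi5 (chr2:32288060-32288099, minus strand): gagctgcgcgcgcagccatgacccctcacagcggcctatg
The letters were found in 16 of 66 starts of ribosomal protein genes (24.2%), in 7.97% of starts of the other kept coding genes, in 4.70% of starts of lost coding genes and in 4.64% of all 32851 starts in the table. On either strand the shares were 25.8, 12.3, 7.26 and 8.89%. A match describes these letters only.

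Among the hormones and granule proteins, insulin and its cargo stayed visible while their levels parted. Ins2 lay between 294321 and 735581 TPM in cells 1 to 39 (median 478810.0) and between 379220.0 and 736904 TPM in cells 40 to 54 (median 632313), a mean ± SD of 479952 ± 85184 against 579362 ± 115801 TPM (n = 39 and 15 cells) and a log2 ratio of 0.27. Ins1 differed more on the same scale, 36768 ± 12639.5 against 55383 ± 16543 TPM and 0.59, with 6 of the 15 cells above all of cells 1 to 39. In cells 55 to 86 and 87 to 138 mean Ins1 was 55149 and 54679 TPM, so the low set was cells 1 to 39. Mean Ins2 was 519982 and 467959 TPM in these later cells, below that of cells 40 to 54. Reads of these near copies can be shared, so their sum is the safer value. Iapp, amylin, a peptide stored beside insulin in the granule, went the other way: it lay between 21333 and 129362 TPM in cells 1 to 39 (median 81693) and between 11114 and 91024 TPM in cells 40 to 54 (median 34654), a ratio of -1.10, and 14 of the 15 cells were below the median of the 39. Mean Iapp was 38554 TPM in cells 40 to 54, near the 42769 TPM of cells 55 to 86, and 86514 TPM in cells 87 to 138. The 15 cells were not alike in Iapp, since 6 lay below every cell of 1 to 39 while cells 42, 46, 48 and 50 had 69310, 67992, 91024 and 68560 TPM.

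The 24 measured genes of insulin processing and the granule were seen about as often but at lower level. Their median share of cells was 98.7% in cells 1 to 39 and 90.0% in cells 40 to 54. Of the 24, 12 were kept and 0 were lost, against 2.83 and 2.71% of all genes tested. At the level of means, 18 were lower and 2 higher by 2-fold or more, with a median log2 ratio of -1.87; over all genes tested 62.6% were that much lower, 10.4% that much higher, and the median was -1.45. Cpe, the carboxypeptidase that trims the ends of cut prohormones, lay between 136 and 5457 TPM in cells 1 to 39 (median 2006) and between 14.2 and 1038 TPM in cells 40 to 54 (median 421), and all 15 cells were below the median of the 39. Pcsk2, a convertase that cuts prohormones, was at 685 ± 343 against 144 ± 97.4 TPM (-2.25). The other convertase, Pcsk1, was seen in 36 of 39 and 7 of 15 cells at 0 to 219.7 TPM (median 0.932) in cells 40 to 54, and cell 44 held 69.0% of their total. Scgn, a calcium sensor of secretory cells, was the lowest member at -5.17, with 0.264 to 46.7 TPM (median 5.99) against 0.830 to 1588 TPM (median 212). The membrane fusion protein Snap25 was seen in 28 of 39 and 6 of 15 cells. Chga and Chgb, the chromogranins that pack the granule core, were seen in all 54 cells, at -0.81 and -1.56. Pcsk1n, an inhibitor of Pcsk1, was one of the 2 higher members, at 11.2 ± 15.9 against 61.9 ± 78.6 TPM (2.37) and above the median of cells 1 to 39 in 12 of the 15 cells; Rab27a, which docks granules, was the other higher member at 1.16, but cell 40 held 77.0% of its total and without it the ratio was -0.77.

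**Figure D3:**
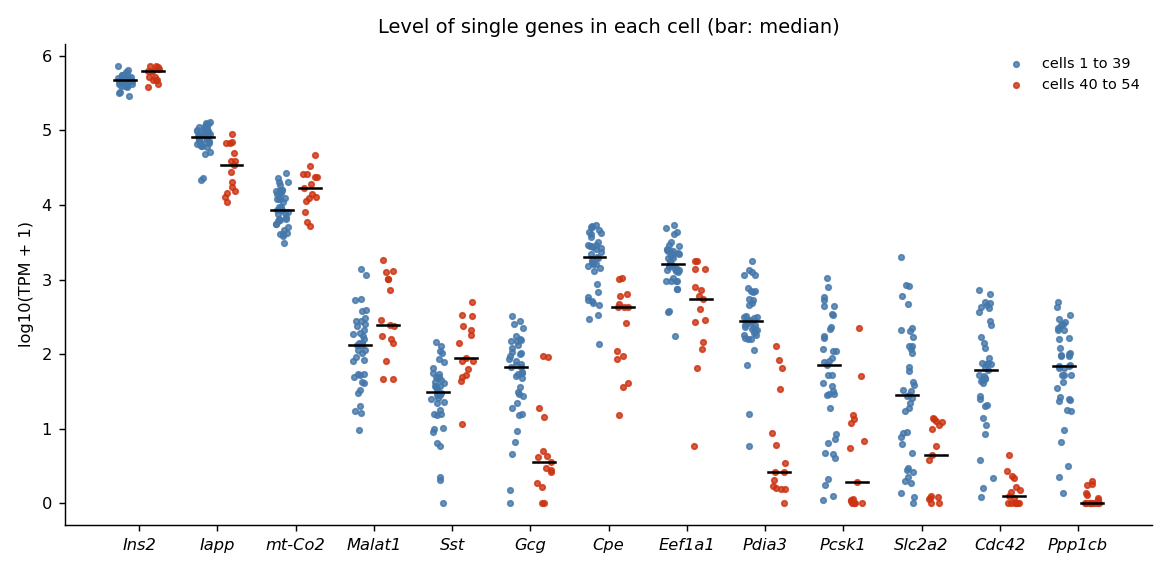
Level of 13 genes as log10(TPM + 1) in each of cells 1 to 39 (blue) and 40 to 54 (red), 1 point per cell, with a bar at the median. Ins2, mt-Co2 and Malat1 lie as high or higher in cells 40 to 54, Iapp and Cpe lower but present in every cell, and Pdia3, Pcsk1, Cdc42 and Ppp1cb near 0 in many or all of the 15 cells.

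The typical transcription factor of the beta cell was low in cells 1 to 39 and was seen in few of cells 40 to 54. The 16 measured members had a median share of 52.6% of cells 1 to 39 and 20.0% of cells 40 to 54, and a median ratio of -1.24, close to that of all genes. Their median level in cells 1 to 39 was 12.7 TPM. All genes with means of 1 to 10 and of 10 to 100 TPM there had median ratios of -1.33 and -2.35. Of the 16 members 2 were lost, against 2.71% of all genes tested. Both were regulators of endocrine fate, Insm1 in 35 of 39 and 3 of 15 cells and St18 in 27 of 39 and 2 of 15 cells. Neurod1, an activator of the insulin genes, was seen in 32 of 39 and 8 of 15 cells, at 48.6 ± 93.0 against 3.86 ± 5.17 TPM (-3.35). Pdx1 was seen in 8 of 39 and 3 of 15 cells, nearly the same share, and Nkx6-1 in 22 of 39 and 3 of 15 cells. Nkx2-2 was seen in 31 of 39 and 11 of 15 cells and Isl1 in 29 of 39 and 13 of 15 cells. Both act in islet development and were the 2 members with means at least 2-fold higher (1.95 and 1.48). These means rest on few cells: cell 48 held 65.5% of the Isl1 total, 13 of the 15 cells were below the median of cells 1 to 39, and averaged over log2(TPM + 1) Isl1 was lower (-0.76). For Nkx2-2 cell 51 held 38.8%, and 9 of the 15 cells were below the median.

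The genes that couple glucose to secretion had low levels in nearly all members. Of 15 measured, 13 (86.7%) were at least 2-fold lower and 0 higher, against 62.6 and 10.4% of all genes tested, with a median of -2.29, and the median share of cells was 43.6 against 20.0%. The median level of this list in cells 1 to 39 was 19.4 TPM. Genes with a mean between 10 and 100 TPM there had a median ratio of -2.35, with 72.4% lower and 4.44% higher. The list's median was thus near that of genes of its level. Slc2a2, the glucose transporter GLUT2, lay between 0 and 2031 TPM in cells 1 to 39 (median 27.4) and between 0 and 13.0 TPM in cells 40 to 54 (median 3.42), and was seen in 34 of 39 and 9 of 15 cells, all 15 below the median of cells 1 to 39. Abcc8, the regulatory subunit of the ATP-sensitive potassium channel, was the only lost member, seen in 38 of 39 and 6 of 15 cells, with 8 of the 15 cells below all others. Glp1r, the receptor of the gut hormone GLP-1, was seen in 14 of 39 and 0 of 15 cells, and Kcnk16, a background potassium channel, in 19 of 39 and 0 of 15 cells and listed at 0 TPM in all 15; the upper limit by 3 counts of 15 is again 20.0%. Ucn3, a peptide that marks mature beta cells, was the only kept member: it lay between 2.68 and 3489 TPM in cells 1 to 39 (median 560.4) and between 3.08 and 1118 TPM in cells 40 to 54 (median 80.8), a ratio of -1.68, with 14 of the 15 cells below the median of the first set.

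Hormones of the other islet cells took separate directions. Sst, the delta-cell hormone somatostatin, lay between 0 and 144 TPM in cells 1 to 39 (median 30.0) and between 10.4 and 491 TPM in cells 40 to 54 (median 86.6), and was above the median of cells 1 to 39 in 14 of the 15 cells (1.98). The pancreatic polypeptide gene Ppy and its relative Pyy were above it in 14 cells as well, at 1.91 and 2.19. Mean Pyy was 31.8 TPM in cells 40 to 54, 30.1 TPM in cells 55 to 86 and 31.8 TPM in cells 87 to 138, so the low set was cells 1 to 39. Mean Ppy was 71.7, 70.8 and 35.8 TPM in the same order. For Sst the means were 158, 76.6 and 66.7 TPM, highest in cells 40 to 54. Glucagon, made by alpha cells from Gcg, was lower instead, at 87.4 ± 79.1 against 15.6 ± 31.3 TPM (-2.41), and 13 of the 15 cells were below the median. All of these levels are small beside insulin, and the highest single value of the 4 genes in the 54 cells was 491 TPM (Sst in cell 40). The means of the 4 other delta-cell markers were lower: Hhex was seen in 14 of 39 and 0 of 15 cells, Rgs2 in 18 of 39 and 5 of 15 cells, and Rbp4 and Pdyn at about the same share, in 12 of 39 and 5 of 15 cells and in 6 of 39 and 3 of 15 cells. Of the alpha-cell markers, Irx1 and Irx2 were seen in 0 of the 54 cells, and Ttr, which beta cells also express, was at -1.55. Whether these hormone reads were made in the cell or carried over was not tested.

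In the ER, folding genes were still seen at lower level. The 32 members had a median ratio of -1.72, with 21 (65.6%, against 62.6% of all genes tested) at least 2-fold lower and 0 higher, and a median share of 96.2 against 76.7% of cells. Pdia3, an isomerase that pairs disulphide bonds in glycoproteins, was seen in all of cells 1 to 39 and in 10 of the 15. It lay between 4.86 and 1751 TPM in cells 1 to 39 (median 275) and between 0 and 128 TPM in cells 40 to 54 (median 1.63), a ratio of -4.25, and 9 of the 15 cells were below all 39. Ssr1, a translocon-associated protein, was seen in 34 of 39 and 6 of 15 cells (-4.36). Hspa5, the main chaperone of the ER, was seen in every cell at 769 ± 632 against 409 ± 473 TPM (-0.91), with 4 cells above and 11 below the median of the first set. Only Srp14, of the signal recognition particle, was lost.

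Cytosolic ribosomal proteins were the largest group that held its level. Of 76 members 48 were kept, 0 were lost, the means of 19 were higher and those of 7 lower by 2-fold or more, and the median ratio of means was 0.49. Of all genes tested 2.83% were kept, 2.71% lost, 10.4% higher and 62.6% lower. The median level of the list in cells 1 to 39 was 211 TPM, and genes between 100 and 1000 TPM there had 26.1% kept and 11.6% lost. Averaged over log2(TPM + 1), where single high cells weigh less, the list median was -0.44, so the direction depends on how the cells are averaged. Rps12 was higher by either measure: it lay between 0 and 284 TPM in cells 1 to 39 (median 8.42) and between 0 and 658 TPM in cells 40 to 54 (median 54.4), with 11 of the 15 cells above the median of the first set. For Rpl31 the ratio of 2.52 came with 9 of 15 cells below that median, and cell 46 held 66.8% of the total. Rps16 was lower at -2.28, with 14 of the 15 cells below the median, though still seen in 38 of 39 and 14 of 15 cells. The factors that load and move the ribosome were near the average of all genes: 15 of 26 translation factors (57.7%, against 62.6% of all genes tested) were at least 2-fold lower and 0 higher (median -1.39), and Eef1a1, the main elongation factor, was at 1947 ± 1199.8 against 683 ± 611 TPM, seen in every cell.

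The 13 protein-coding genes and both ribosomal RNAs of the mitochondrial genome were seen in all 54 cells. The protein-coding genes took 2.82 to 28.3% of TPM in cells 40 to 54 (median 8.60%) and 2.70 to 19.1% in cells 1 to 39 (median 6.82%). The medians were 10.8% in cells 55 to 86 and 8.78% in cells 87 to 138, so the lowest young median was that of cells 1 to 39. Cells 48, 51 and 53, with 28.3, 26.6 and 26.3%, were above all 39 cells, and the other 12 cells were within their range. The median ratio of the 13 genes was 0.84. Of them 5 were at least 2-fold higher and 0 lower, against 10.4 and 62.6% of all genes tested. Of the 33 genes at 1000 TPM or above in cells 1 to 39, 15.2% were higher and 39.4% lower. Among the 5, mt-Atp8, a subunit of ATP synthase, lay between 1792 and 16302 TPM in cells 1 to 39 (median 6079) and between 1716 and 46394 TPM in cells 40 to 54 (median 11018), and mt-Nd6, the one subunit encoded on the light strand, was at 1.41. Mean mt-Nd6 was 1624 TPM in cells 40 to 54, below the 1962 TPM of cells 55 to 86 and the 2127.5 TPM of cells 87 to 138. Mean mt-Atp8 was 15823 TPM, above the 11049 and 9540 TPM of those later cells. The genes did not move as one block, although they are cut from shared precursors: mt-Co1, of cytochrome oxidase, had a mean ratio of 0.65 but was below the median of the first set in 10 of the 15 cells, and it was -0.81 when averaged over log2(TPM + 1). Strand handling is not given, and a nuclear copy, Gm10925, was listed at a level like theirs, 9446 ± 4713 against 18485 ± 15325 TPM, so reads of mitochondrial genes can be shared.

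Nuclear genes of the respiratory chain and ATP synthase parted from the mitochondrial ones. Over 50 members the median ratio of means was -0.25 (0.11 after TPM was rescaled without insulin), but averaged over log2(TPM + 1) it was -2.14, so the size of the difference depends on how the cells are averaged. They were seen in a median of 94.9 against 80.0% of cells. Of the 50, 3 were lost and 11 kept, against 2.71 and 2.83% of all genes tested. Their median level in cells 1 to 39 was 225 TPM, and genes between 100 and 1000 TPM there had 11.6% lost and 26.1% kept. Sdhc, a membrane anchor of succinate dehydrogenase, was lost, seen in 32 of 39 and 2 of 15 cells, and Atp5a1, the alpha subunit of ATP synthase, was kept at 246 ± 251 against 19.8 ± 22.7 TPM (-3.57), below the median of cells 1 to 39 in all 15 cells. Atp5k, a small subunit, had a higher mean (1.82), with 5 cells above all of cells 1 to 39 and 8 below their median. Glycolysis and the citrate cycle had the lowest median ratio of means of the 24 lists, -2.41, with 24 of 28 members (85.7%) at least 2-fold lower and 0 higher. The median level of this list in cells 1 to 39 was 60.8 TPM, and genes between 10 and 100 TPM there had a median of -2.35, with 72.4% lower. Averaged over log2(TPM + 1) the list was at -1.92 and was not the lowest, since the ER list was at -2.36. Pdhb, of pyruvate dehydrogenase, was seen in 27 of 39 and 1 of 15 cells, and Got2, which passes electrons into mitochondria through aspartate, in 22 of 39 and 2 of 15 cells.

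In protein turnover and acidification the shares of lower members were close to the 62.6% of all genes tested. The median ratios of the proteasome and the proton pump were below that of genes of their level. In the proteasome 18 of 29 members (62.1%) were at least 2-fold lower, 1 was higher and 5 were lost, a median of -2.21. Of all genes tested 2.71% were lost. The median level of this list in cells 1 to 39 was 108 TPM. Genes with a mean between 100 and 1000 TPM there had a median ratio of -1.42, with 60.0% lower and 11.6% lost. The catalytic proteasome subunit Psmb5 was seen in 33 of 39 and 4 of 15 cells. Psmb4, a neighbour in the same ring, was seen in 24 of 39 and 13 of 15 cells. It was the one member with a mean at least 2-fold higher (2.12), above the median of the first set in 12 of the 15 cells. The vacuolar proton pump, at a median level of 205 TPM in cells 1 to 39, had 11 of 16 members (68.8%) lower and 0 higher (-2.18). Its accessory subunit Atp6ap1 had the lowest ratio among the genes named: it lay between 0 and 1525 TPM in cells 1 to 39 (median 78.2) and between 0 and 10.9 TPM in cells 40 to 54 (median 0.423), a ratio of -6.68. Among 27 lysosome and autophagy genes 18 (66.7%) were lower and 2 higher, and Map1lc3b, which coats autophagosomes, was seen in 32 of 39 and 3 of 15 cells.

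Splicing and cytoskeletal genes were near the median of all genes, while those of RNA polymerase II and Mediator were lower. Splicing factors had a median of -1.52, against -1.45 over all genes tested. Of 35 members 22 (62.9%) were lower, 5 (14.3%) higher and 4 lost, against 62.6, 10.4 and 2.71% of all genes tested. Snrpd3, a core protein of the splicing particles, was seen in 25 of 39 and 1 of 15 cells. Genes of RNA polymerase II and Mediator were at -1.93 and chromatin modifiers at -1.27, both seen in few cells of either set. The RNA polymerase II and Mediator list had a median level of 21.1 TPM in cells 1 to 39, and genes between 10 and 100 TPM there were at -2.35. Of 18 genes of actin, thymosin and tubulin (median -1.58), 10 (55.6%) were lower and 0 higher. Actb, cytoplasmic actin, was seen in every cell at 530.0 ± 699 against 287 ± 403 TPM, whereas Tuba1b, an alpha tubulin, was lost, seen in 33 of 39 and 4 of 15 cells.

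By means, early response genes were lower in a smaller share of members than all genes tested, and antioxidant genes in a similar share. The 22 measured immediate early and dissociation genes had a median of -0.92, against -1.45 over all genes tested. Of them 10 (45.5%) were lower and 2 (9.09%) higher, against 62.6 and 10.4%. Their median level in cells 1 to 39 was 14.0 TPM, and genes between 10 and 100 TPM there had a median of -2.35. Averaged over log2(TPM + 1) the list was at -0.64 and all genes at -0.49, so the difference depends on how the cells are averaged. Fos, which rises within minutes of a stimulus, was seen in all 54 cells and lay between 2.31 and 1389.6 TPM in cells 1 to 39 (median 373) and between 14.0 and 1501 TPM in cells 40 to 54 (median 221), a ratio of -0.02. Btg2, an antiproliferative gene, was seen in all of cells 1 to 39 and in 10 of the 15, with a median of 2.32 against 61.3 TPM and 1 cell, number 46, at 1588 TPM. That same cell had the highest Mt1, a metallothionein, at 17317 TPM. Among 26 antioxidant and metal response genes 17 (65.4%, again near the 62.6% of all genes) were lower and 0 higher; Prdx2, a peroxidase, was seen in 34 of 39 and 5 of 15 cells, and Txnip, an inhibitor of thioredoxin, in 20 of 39 and 9 of 15 cells.

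Of 4 measured nuclear noncoding RNAs, 3 had means at least 2-fold higher than in cells 1 to 39, and the other, Snhg11, was seen in 11 of 39 and 1 of 15 cells (-0.74). Malat1, a long RNA kept in the nucleus, lay between 8.44 and 1376 TPM in cells 1 to 39 (median 131) and between 44.6 and 1851 TPM in cells 40 to 54 (median 242), with 12 of the 15 cells above the median (1.43). Neat1, the scaffold of paraspeckles, was seen in 30 of 39 and 15 of 15 cells (1.18), and Meg3 in 35 of 39 and 15 of 15 cells (1.82). Against all other young cells together the direction of Malat1 was the opposite (-1.99), with means of 4202 TPM in cells 55 to 86 and 2633 TPM in cells 87 to 138. The mitochondrial serine tRNA TrnS1 showed the same order, with 4 of 39 cells, 11 of 15 cells and then all of cells 55 to 138.

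**Figure D4:**
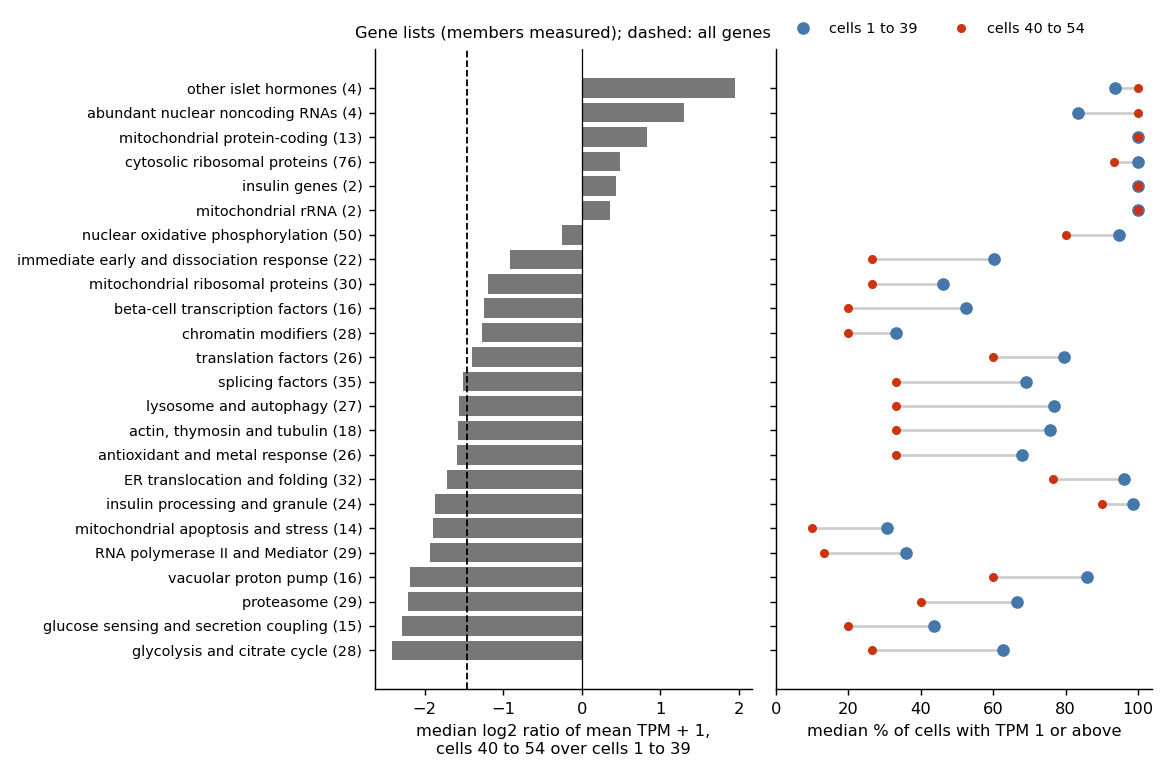
Left, median log2 ratio of mean TPM + 1 in cells 40 to 54 over cells 1 to 39 for 24 gene lists, with the number of measured members in brackets and a dashed line at the median of all genes tested (-1.45). Right, median percent of cells in which a member was seen in each set; the lists of mitochondrial, ribosomal, insulin and other hormone genes are at 93.3% or above in both sets, and all other lists but the noncoding RNAs are seen in a smaller share of cells 40 to 54.

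Cells were also compared at an equal number of genes. When each of the 54 cells was cut to its 1604 highest genes, the number seen in the poorest cell, 26 genes were lost and 20 of them were among the 298; this compares ranks, since TPM holds no reads to thin. The cut itself limits this count, because it lowers the shares of both sets (median over all genes tested 7.69 and 6.67%) and a lost gene needs a share of at least 50% in cells 1 to 39. Of the 298 genes, 82 still had that share after the cut, and the other 216 could not be called lost. Ppp1cb, Cdc42, Hmgn2, Swi5 and Atp6ap1 were among the 20. At equal number Ppp1cb was among the highest genes in 76.9% of cells 1 to 39 and 0% of cells 40 to 54, and Cdc42 in 84.6 and 6.67%. Pdia3 entered the lost genes, at 94.9 and 33.3%. The granule list was then seen in 76.9 and 76.7% of cells and translation factors in 52.6 and 53.3%. The proteasome (46.2 and 26.7%), the proton pump (65.4 and 46.7%) and the ER list (83.3 and 66.7%) kept a gap. Genes gained by at least 20 points numbered 793 at equal number, 7.22% of the 10990 tested, against 0.237% lost by at least 50 points. Of them, 149 were also gained without the cut. The median cell had 1077 genes at TPM 10 or above in cells 40 to 54 and 2188 in cells 1 to 39. The cut to 1604 genes thus reached lower levels in cells 40 to 54, which favours gains there.

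Some genes were seen more often in cells 40 to 54. With a share at least 20 points higher, 286 genes were gained, 258 of them among the 10990 tested (2.35%). Most were at low level: 272 of the 286 had a median under 10 TPM in the 15 cells, and 93 had a lower mean than in cells 1 to 39. Cdc40, a splicing factor, is an example, seen in 6 of 39 and 15 of 15 cells at 3.14 to 98.5 TPM (median 12.2), with a mean of 21.0 TPM, below the 29.0 TPM of cells 1 to 39, where the highest cell had 616 TPM. Stard3, a cholesterol carrier of late endosomes, was seen in 4 of 39 and 15 of 15 cells, and Trappc2, of a vesicle tethering complex, in 7 of 39 and 14 of 15 cells.

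A group of 24 genes was seen in at least 12 of the 15 cells and in at most 20% of cells 1 to 39, limits that were set after the values had been seen. Only 7 of the 24 were seen in at most 10% of each other set, the later young and old cells included. Others were common in later young cells. Trappc2 was seen in 46.9% of cells 55 to 86 and 53.8% of cells 87 to 138, and Cdc40 in 40.6 and 55.8%. In the typical one of the 15 cells the levels of the 24 genes were low, with a median of 4.59 TPM over the genes' medians. Single cells were higher, with a median of 68.2 TPM over the genes' highest cells. The same cells were high for most of the 24 genes: cell 53 was among the 3 highest cells for 23 of them and the highest for 9, cell 49 was the highest for 7, and cell 46 was among the 3 highest for 0. Fgg and Dpys, genes best known from liver, which encode the gamma chain of fibrinogen and dihydropyrimidinase, set the run apart most. Fgg (NCBI Gene 99571, chr3:83007724-83015056) was at 0.926 to 355 TPM (median 3.80) in the 15 cells, 355 TPM in cell 42 and 23.3 TPM or less in the others, and was seen in 14 of them. Dpys (NCBI Gene 64705, chr15:39768485-39857470) was seen in 15 of 15 cells at 1.62 to 16.4 TPM (median 3.36). Both were listed at 0 TPM in all of cells 1 to 39 and were seen in 0% of cells 55 to 86, cells 87 to 138 and old cells.

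Macrophage genes made up another share of the 24. Lyz2, the lysozyme of myeloid cells, was seen in 3 of 39 and 13 of 15 cells. It was at 3998 TPM in cell 49 and between 0 and 85.4 TPM in the other 14, and at 2926 TPM in the highest cell of 1 to 39, where the median was 0. Ctss, a lysosomal protease of antigen-presenting cells, was seen in 7 of 39 and 15 of 15 cells, Bcl2a1b, a survival gene whose reads can be shared with its copies, in 3 of 39 and 14 of 15 cells, and Ms4a7, a membrane protein of macrophages, in 2 of 39 and 12 of 15 cells. The 7 macrophage markers fixed for the check summed to a median of 19.5 TPM in cells 40 to 54 (range 0.0789 to 6624) against 0.261 TPM in cells 1 to 39 (range 0 to 5866). Lyz2 had by far the largest difference in share. Smaller differences in share in the same direction were those of other members: Cd68 was seen in 3 of 39 and 3 of 15 cells (7.69 and 20.0%), Csf1r in 2 of 39 and 1 of 15 cells, C1qa in 4 of 39 and 4 of 15 cells (10.3 and 26.7%) and C1qb in 2 of 39 and 4 of 15 cells (5.13 and 26.7%). Ptprc, the antigen CD45 of all white blood cells, went the other way, in 6 of 39 and 0 of 15 cells. Cell 49, at 6624 TPM, and cells 18 and 32 of the first set, at 5866 and 5611 TPM, stood apart as cells with both insulin and macrophage RNA. Without cell 49 the ratio of means turned from 1.19 to -2.60 for Lyz2, from 1.38 to -2.14 for Ms4a7 and from 0.65 to -2.77 for Ctss, while the shares of cells stayed as given but for 1 cell. Without the 3 cells, an alternative added after seeing the data, 325 genes were lost, 315 kept and 291 gained.

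**Figure D5:**
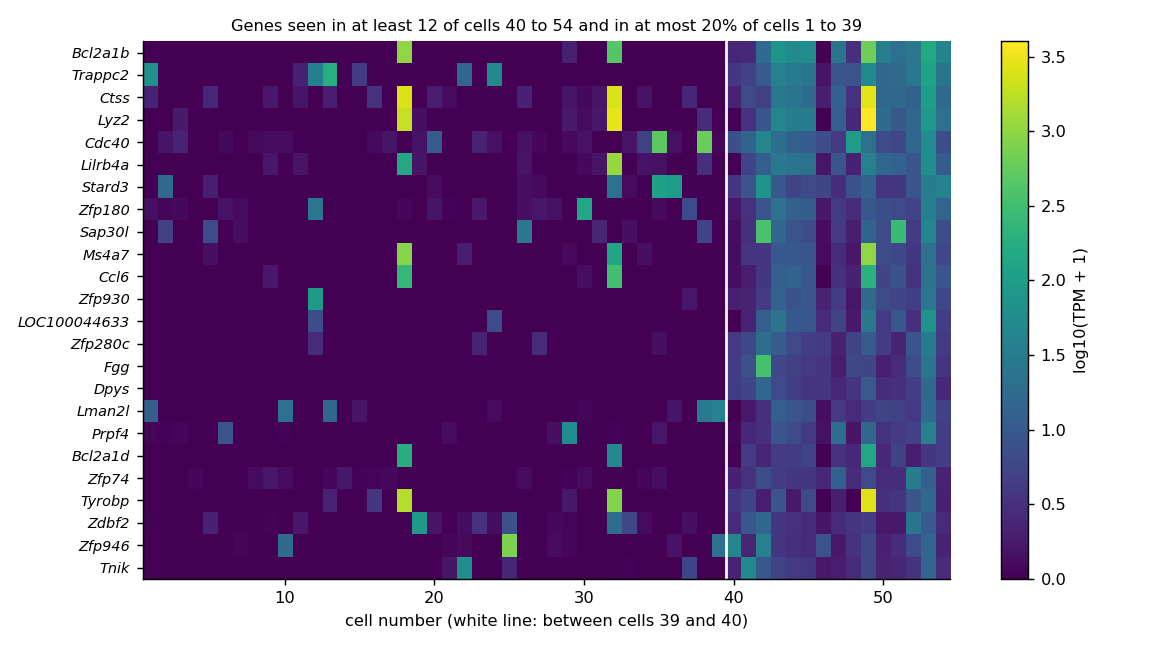
Level as log10(TPM + 1) of the 24 genes seen in at least 12 of cells 40 to 54 and in at most 20% of cells 1 to 39, 1 column per cell, with a white line between cells 39 and 40. To the right of the line nearly every cell has low values, brightest in cells 49 and 53, and to the left the genes appear in single cells, the macrophage genes in cells 18 and 32.

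Among markers of cells outside the islet's endocrine types, the duct list was, beside the macrophage list, the other one with values well above 0. Its 6 members summed to a median of 2.41 TPM in cells 40 to 54 (range 0 to 560.4) and 155 TPM in cells 1 to 39 (range 4.92 to 1586). This sum was nearly all Krt7, a keratin of simple epithelia, which was seen in 39 of 39 and 9 of 15 cells, at 0 to 367 TPM (median 2.41) in the 15 cells, and Spp1, osteopontin, at 503 TPM in cell 42 and seen in 6 of 39 and 1 of 15 cells; the defining duct markers Krt19, Sox9 and Cftr were listed at 0 in all 54 cells. The 9 acinar markers summed to a median of 0.754 TPM against a median of 0 in cells 1 to 39, the 6 endothelial markers to at most 0.824 TPM, and the stellate and red blood cell markers were at 0 in all 54 cells. Acinar traces, Fgg and Dpys, macrophage genes, few genes seen and the cell numbers 40 to 54 go together here, and their part in one another was not tested. Fewer RNA molecules in a cell and fewer reads of its library cannot be told apart, since TPM keeps no depth, and the labels mark the 15 cells by their numbers only. No doublet caller was run.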

How the data were processed

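The values are TPM as deposited by the authors, in 1 table of 207 cells by 44448 NCBI Gene numbers. A symbol was found for 39725 rows in the RefSeq table of GRCm38.p6; the 4723 rows without one averaged 928 TPM in sum. Columns were joined to cells by their titles, and 0 columns were unused. The submitters' processing notes name GRCm38 (mm10), CASAVA 1.8.2 and FastQC; aligner, counter and strand handling are not given in the sources. The members, the 24 gene lists and the thresholds were chosen with earlier results of these data known.

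A gene was seen at TPM 1 or above. Lost meant a share of cells at least 50 percentage points lower in cells 40 to 54, gained at least 20 points higher, and kept at least 90% in both sets. Log2 ratios are of mean TPM plus a pseudocount of 1, which understates low genes. List members averaged TPM 1 or more in either set, and 2-fold counts over all genes used 10. Shares of cells carry counting error only, and a count of 0 was given the limit of 3 counts. Values are means ± SD or medians over cells, with no test. Genes were named by a rule on the largest changes in share and in ratio, the most abundant kept genes and the extremes of each list, with some fixed by name; single lost, kept or gained list members, cell type markers, ribosomal protein starts, Dpys and Gm10925 were added after their values were seen. Lost, lower and higher calls were tested on simulated data. Python 3.11.15, numpy 2.4.6, pandas 2.3.3 and scipy 1.17.1 were used.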

Additional observations from a re-analysis of the deposited data

How the results depend on the processing

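The lower number of genes seen (a difference of medians of -1624) and the higher insulin share (16.5 percentage points) kept their direction under each alternative run for them. Both measures were used to pick the cells, so their direction was set by the choice and gives it no support. Leaving out each of cells 40 to 54 in turn gave -1628 to -1604 genes, 12.3 to 17.8 points of insulin, 279 to 341 lost, 314 to 331 kept and 279 to 324 gained genes, 3274 to 3411 genes 2-fold lower, 588 to 656 higher and 16 to 17 lists with a median at or under -1. With a gene seen at any TPM above 0, 481 genes were lost, 577 kept and 976 gained; at TPM 10 or above, 170, 77 and 111, with a difference of -1111 genes per cell. With an equal number of genes per cell, 26 were lost, 98 kept and 793 gained. Against all other young cells, 508 were lost. Of the genes averaging TPM 10 or more, 3301 were 2-fold lower and 632 higher; the higher ones numbered 416 with a pseudocount of 10, 1289 after rescaling without insulin and 133 by mean log2(TPM + 1), and without the filter 6883 were lower and 1143 higher. Lower genes made up 83.9% of those called, and 95.0% by mean log2(TPM + 1). The median over all genes of -1.45 moved to -1.38 after rescaling, to -0.49 by mean log2(TPM + 1), to -0.41 with a pseudocount of 10 and to -2.33 with 0.1, so the list medians are to be read beside it.

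Of 106 genes and list medians, the sign turned for 9 by mean log2(TPM + 1). These were Isl1 (1.48 to -0.76), Nkx6-1 (0.14 to -0.81), mt-Co1 (0.65 to -0.81), mt-Nd4l (0.04 to -0.89), Mt1 (0.52 to -0.14), Cdc40 (-0.44 to 2.98), Fos (-0.02 to 0.20), Rab27a (1.16 to -0.050) and the cytosolic ribosomal proteins (0.49 to -0.44). It turned for 3 after rescaling without insulin, 8 against all other young cells, 4 without the cells at the borders (Rab27a at -0.75) and 10 on leaving out a single cell. Against all other young cells Malat1 was at -1.99, Trappc2 at -0.77, TrnS1 at -1.60 and the list of abundant nuclear noncoding RNAs at -1.47. Without cell 49, Lyz2 was at -2.60, Ms4a7 at -2.14, Ctss at -2.77 (0.65 with it) and Bcl2a1b at -0.08; leaving out each other cell gave at most 1.29, 1.48, 0.75 and 1.11, so the range for Bcl2a1b was -0.077 to 1.11. Without cell 46, Mt1 was at -1.16, and leaving out each cell in turn gave -0.77 (without cell 40) to 1.26 for Rab27a. No paired analysis was possible because cells carry only a number in the order of the titles, which pairs no cells between the sets, and no test was made.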
